A study of Mus musculus with 9 samples.

Results

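Genes of fatty acid binding, uptake, activation and storage were followed in MLO-Y4 cells, an osteocyte-like mouse cell line, by RNA sequencing. They are the 10 genes Fabp3, Fabp4, Fabp5, Cd36, Plin2, Pparg, Lpl, Acsbg1, Angptl4 and Hilpda, found by symbol among the 56748 genes of the count table. The list was chosen on the libraries described here, because Fabp4 was much higher and Acsbg1 much lower after 48 h than in the control. The difference between 48 h and control is therefore given for the members as a description without a test. All 10 had at least 1 read, and 7 of them passed the filter on low counts and are among the 13812 genes tested.

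The cells shared a transwell with primary chondrocytes of C57BL/6J mice, so that soluble factors could pass between the cell types. In the control group (3 libraries) the chondrocytes had not been stimulated. In the other groups (3 libraries each) they had received interleukin-1β at 10 ng/mL for 6 h beforehand, and the MLO-Y4 cells were kept with them for 24 h or 48 h. The labels give no culture time for the control, so stimulation and time cannot be told apart in a difference from it. They also name the line of the 48 h samples MLO-Y5, MLO-Y6 and MLO-Y7, while the protocols name MLO-Y4 throughout, and nothing states whether replicates came from separate cultures. The p-values thus measure the spread between these libraries, which may be technical.

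Long-chain fatty acids reach a cell from lipoproteins, whose triglycerides are split by lipoprotein lipase, or as free acids that enter with the help of CD36 and other membrane proteins. Inside the cell, fatty acid binding proteins carry them through the cytosol, and acyl-CoA synthetases activate them for oxidation or for esterification. Surplus acyl chains are stored as triglyceride in lipid droplets coated by perilipins. PPARγ, a nuclear receptor activated by fatty acids, controls many of these genes and drives the formation of fat cells.

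Total counts per library ranged from 12250628 to 18515456. Every pair of replicates differed by more than counting noise (2.32 to 8.83 chi-square units per degree of freedom), so each library was counted as 1 sample. Values are given as CPM, the counts set to a library of 1000000 reads after TMM scaling, which evens out differences in composition. In a library, 3 counts, taken as the floor of detection, correspond to 0.160 to 0.245 CPM. The floors and the counts cover counting error only. Of 8 osteocyte markers, Phex, Pdpn and Gja1 were at 1 CPM or more in each group, Mepe, Fgf23 and Dkk1 had no read in any library, and Sost had 1 read in all. Dmp1 had 3 reads over the control libraries, 8 at 24 h and 1 at 48 h. In bulk samples, fewer cells of a type and less RNA per cell cannot be told apart.

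Against the control, Hilpda rose and Plin2 fell at 24 h, while the other 5 members tested did not pass. This is 1 of 7 members higher, where 3.25% of all genes tested were higher, and 1 of 7 lower, where 2.90% were. Genes were called at an adjusted p under 0.05 (edgeR quasi-likelihood test, Benjamini-Hochberg adjustment over all genes tested). At 48 h against the control, 4 of the 7 lay on the higher side of this threshold and 2 on the lower, where the shares of all genes were 22.0% and 24.4%, and nothing is read from these counts because this comparison chose the list. From 24 h to 48 h, 4 of 7 were higher and 2 lower, against 23.7% and 25.4% of all genes. These counts include Fabp4 and Acsbg1, whose 48 h libraries chose the list. The comparisons share libraries, the control in one case and the 48 h group in the other, so their values are set side by side and not correlated.

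**Figure D1:**
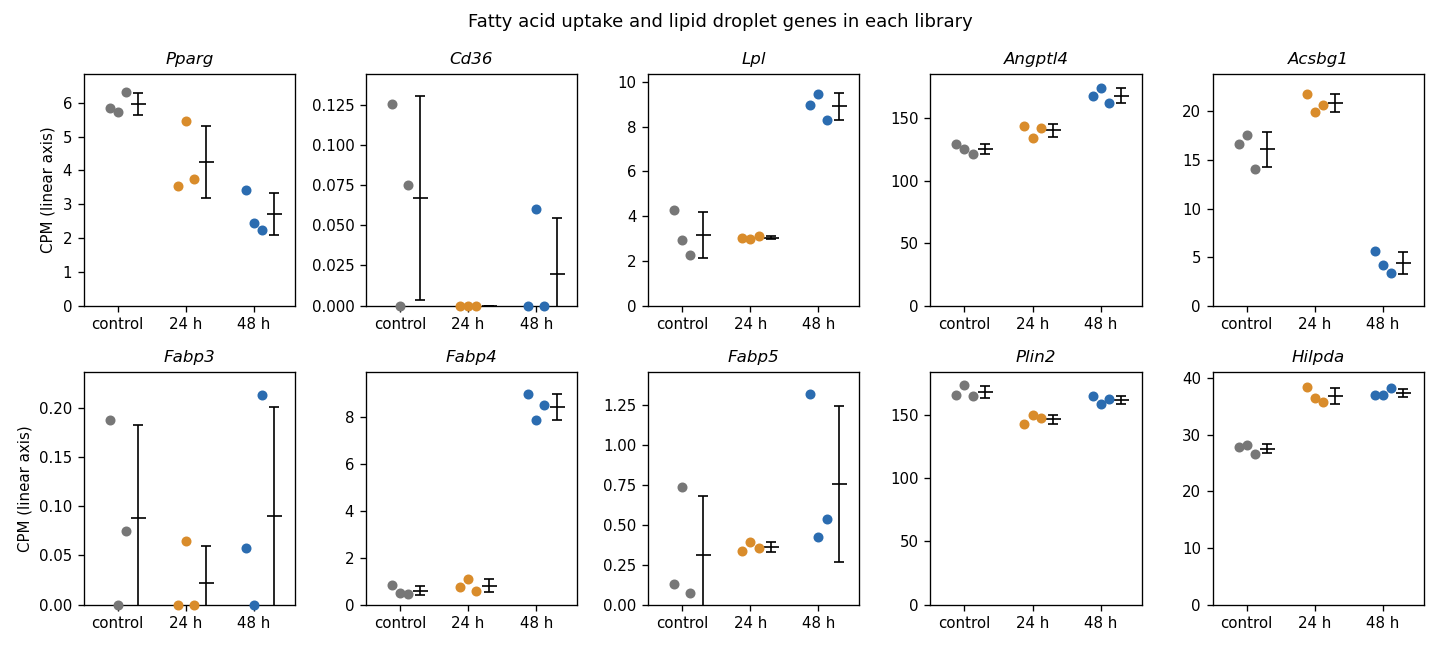
Expression of the 10 genes in each library, as CPM on linear axes that start at 0 and differ between panels. Each point is 1 library, and the black mark and bars give the mean and SD of 3 libraries per group. Fabp4 and Lpl stand apart at 48 h on the high side and Acsbg1 on the low side, Hilpda is above the control at both times, and Cd36 and Fabp3 stay at or near 0.

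Pparg encodes PPARγ, the receptor of the set. Pparg (ENSMUSG00000000440, chromosome 6, 115337912 to 115467360, GRCm39) was at 5.84, 5.72 and 6.32 CPM in control replicates 1 to 3, at 3.54, 5.47 and 3.74 CPM at 24 h and at 3.43, 2.46 and 2.24 CPM at 48 h. Every 24 h library lay below every control library, 24 h replicate 2 only just, and every 48 h library lay below every 24 h library. At 24 h the log2FC (the log2 fold change) was -0.48 (SE 0.20, adjusted p 0.184), with a 95% interval of -0.90 to -0.07 before adjustment, and did not pass. At 48 h against the control it was -1.14 (SE 0.21), on 41 to 60 counts per 48 h library. From 24 h to 48 h Pparg fell by 0.65 on the log2 scale (SE 0.21, adjusted p 0.0164). That call was lost without 24 h replicate 2 (log2FC -0.42, adjusted p 0.143), without 48 h replicate 2 (adjusted p 0.0581) and without 48 h replicate 3 (adjusted p 0.0800).

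Cd36, the scavenger receptor that takes up fatty acids, was not expressed at a level these libraries could measure. Cd36 (ENSMUSG00000002944, chromosome 5, 17986688 to 18093799) had 2, 0 and 1 counts in the control libraries, none at 24 h and 0, 1 and 0 at 48 h. All lie at or under the floor of 3 counts, so no fold is given.

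Lpl encodes lipoprotein lipase, the secreted enzyme that frees fatty acids from circulating triglyceride. Lpl (ENSMUSG00000015568, chromosome 8, 69333143 to 69360100) stood at 4.27, 2.94 and 2.26 CPM in the control, at 3.00, 3.00 and 3.10 CPM at 24 h and at 8.97, 9.47 and 8.27 CPM at 48 h. The control and 24 h libraries overlapped, and the 48 h libraries were above all others. At 24 h the log2FC was -0.08 (SE 0.21, adjusted p 0.8996), with an interval of -0.53 to 0.37, and it turned to 0.23 without control replicate 1 (adjusted p 0.657). At 48 h against the control it was 1.47 (SE 0.18). From 24 h to 48 h Lpl rose by a log2FC of 1.55 (SE 0.18, adjusted p 1.43e-06).

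Angptl4 encodes a secreted inhibitor of lipoprotein lipase whose gene responds to fasting, PPAR ligands and low oxygen. Angptl4 (ENSMUSG00000002289, chromosome 17, 33992724 to 34000804) was at 129.8, 125.9 and 121.4 CPM in the control, at 144.4, 134.8 and 142.5 CPM at 24 h and at 167.9, 174.5 and 162.8 CPM at 48 h. The groups did not overlap. At 24 h the log2FC was 0.16 (SE 0.05, adjusted p 0.0881), outside the threshold, and its adjusted p ranged from 0.0501 to 0.296 over the alternative settings. At 48 h it was 0.42 (SE 0.05) above the control, and from 24 h to 48 h it rose by 0.26 (SE 0.05, adjusted p 0.000431). At 24 h neither the enzyme nor its inhibitor was called against the control.

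The bases just upstream of Angptl4 are shown because the gene is a known responder to low oxygen, and its changes can be set beside the letters of that response. For each gene, the 250 bases before the gene start of the deposited table were read from GRCm39, 5′ to 3′ on the strand of the gene, and searched on both strands. The motifs were the core of hypoxia-inducible factor sites (ACGTG or GCGTG), the PPAR direct repeat (AGGTCA, any base, AGGTCA), the C/EBP pattern TTNNGNAA and the AP-1 site TGANTCA. Capitals mark matches. In Angptl4 (chr17:34000805-34001054, minus strand) they are a C/EBP pattern that begins 212 bases before the start and the reverse complement of the hypoxia core at 155 and 97 bases before it.
Angptl4: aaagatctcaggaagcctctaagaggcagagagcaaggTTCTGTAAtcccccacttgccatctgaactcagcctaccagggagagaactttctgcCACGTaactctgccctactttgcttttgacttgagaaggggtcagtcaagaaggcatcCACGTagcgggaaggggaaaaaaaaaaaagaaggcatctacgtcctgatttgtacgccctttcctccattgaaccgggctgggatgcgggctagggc

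Of the 10 members, 7 held the hypoxia core in this window, against 42.0% of the windows of 21906 protein-coding genes. The windows of Hilpda, which is also known to respond to low oxygen, and of Fabp4 and Lpl held none. The C/EBP pattern was in 5 of 10, against 36.1%, and the AP-1 site in 1 of 10, against 6.10%. The PPAR repeat was in none of the 10 and in 0.0411% of all windows, so this search says nothing about PPARγ at these genes. A match describes letters, and binding was not measured.

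Acsbg1 encodes the bubblegum acyl-CoA synthetase, which activates long and very long chain fatty acids and is best known from brain, adrenal gland and testis. Acsbg1 (ENSMUSG00000032281, chromosome 9, 54512161 to 54569154) was at 16.6, 17.6 and 14.1 CPM in the control, at 21.8, 19.99 and 20.7 CPM at 24 h and at 5.60, 4.20 and 3.42 CPM at 48 h. All 24 h libraries lay above the control libraries and all 48 h libraries below them. At 24 h the log2FC was 0.37 (SE 0.12, adjusted p 0.0832), with an interval of 0.12 to 0.63 before adjustment, and did not pass. It passed without 48 h replicate 1 (adjusted p 0.0477), with no filter on low counts (adjusted p 0.0158) and with the replicate number as a block (adjusted p 0.0489), and over all alternatives its adjusted p ranged up to 0.263. At 48 h against the control the log2FC was -1.87 (SE 0.14), and against 24 h it was -2.24 (SE 0.14), both given without a test. The upstream window of Acsbg1 (chr9:54569155-54569404, minus strand) is printed as that of the member with the lowest log2FC at 48 h. It held the hypoxia core at 233 bases and the C/EBP pattern at 63 bases before the start, both on the reverse strand.
Acsbg1: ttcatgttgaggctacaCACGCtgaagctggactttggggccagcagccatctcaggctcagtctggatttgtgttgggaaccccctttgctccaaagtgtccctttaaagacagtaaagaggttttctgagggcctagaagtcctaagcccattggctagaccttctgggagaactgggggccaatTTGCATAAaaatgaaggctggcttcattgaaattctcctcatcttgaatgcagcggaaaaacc

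The fatty acid binding proteins are small cytosolic carriers, named after the tissues where they abound: Fabp3 for heart muscle, Fabp4 for fat cells and Fabp5 for epidermis. Of these, Fabp4 alone passed the filter on low counts. Fabp4 (ENSMUSG00000062515, chromosome 3, 10269148 to 10273636) had 13, 6 and 6 counts in the control libraries, 11, 17 and 8 at 24 h and 157, 131 and 159 at 48 h. In CPM these were 0.816, 0.491 and 0.451, then 0.734, 1.11 and 0.564, and at 48 h 8.97, 7.85 and 8.49. Control and 24 h libraries overlapped, and the 48 h libraries were far above all others. The log2FC at 24 h was 0.42 (SE 0.37, adjusted p 0.598), with an interval of -0.35 to 1.20. At 48 h it was 3.79 (SE 0.25) against the control and 3.37 (SE 0.24) against 24 h, given without a test since these libraries chose the gene.

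Fabp3 and Fabp5 were left untested. Fabp5 (ENSMUSG00000027533, chromosome 3, 10077608 to 10081667) had 2, 9 and 1 counts in the control, 5, 6 and 5 at 24 h and 23, 7 and 10 at 48 h. The 48 h libraries overlapped with the control, whose replicate 2 reached 9 counts. With no filter the log2FC of Fabp5 was 1.33 against the control (no test is given, for the reason above) and 1.04 against 24 h (adjusted p 0.181). Fabp3 (ENSMUSG00000028773, chromosome 4, 130202388 to 130209256) had 3, 0 and 1 counts in the control, 0, 1 and 0 at 24 h and 1, 0 and 4 at 48 h, and no fold is given. Its end overlaps Zcchc17 on the opposite strand by 81 bases, and a processed copy, Fabp3-ps1, had at most 3 counts per library. Whether the counting used the strand is not stated in the sources used here, so the few reads of Fabp3 cannot be assigned with certainty.

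Fabp4 and Fabp5 lie in one cluster of the family on chromosome 3, together with Pmp2, Fabp9 and Fabp12. Pmp2, the carrier of myelin, and Fabp9 and Fabp12 had no read in any of the 9 libraries. Fabp9 ends 6804 bases before the lower coordinate of Fabp4 and was at 0 counts at 48 h as well. Fabp7, the brain form on another chromosome, had 2 to 6 counts per control library and 5 to 10 at 48 h. Within the family, counts above 23 were seen for Fabp4 and no other gene listed here.

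Fabp4 and Cd36 are also made by fat cells, macrophages and endothelium, so markers of these cells were examined beside them. Of 8 adipocyte markers, Lep, Cfd and Cidec had no read in any library, Adipoq had 1 read at 48 h and Plin1 had 1 at 24 h. Retn, which encodes resistin, had no read in the control, 2 over the 24 h libraries and 15 over the 48 h libraries. The summed level of the list was 9.16 to 10.0 CPM in the control, 8.46 to 11.1 at 24 h and 11.3 to 12.7 at 48 h, nearly all from Lipe, which is also in a list of lipolysis below. Lipe rose at 48 h against the control, close to the threshold (log2FC 0.30, adjusted p 0.0476). It was not called from 24 h to 48 h (adjusted p 0.0834). Of 8 macrophage markers, Adgre1, Itgam and Tyrobp had no read and Ptprc had 1. The list summed to 5.19 to 7.93 CPM in the control, 3.94 to 5.60 at 24 h and 6.34 to 7.73 at 48 h. Most of this came from Csf1r and Cd68. Csf1r was at means of 3.31 CPM in the control, 1.84 at 24 h and 3.24 at 48 h. It fell at 24 h (log2FC -0.84, adjusted p 0.0377). Cd68 was at 2.74, 2.40 and 2.89 CPM in the same order and was not called in any comparison. Over the libraries of each group, again in that order, Lyz2 had 18, 11 and 27 reads and Fcer1g had 3, 7 and 23. Of 8 endothelial markers, Cdh5, Emcn, Cldn5 and Gpihbp1 had no read, and the sum was lowest at 48 h, at 0.899 to 1.33 CPM. The sum came mostly from Egfl7, at means of 1.88 CPM in the control, 2.11 at 24 h and 0.959 at 48 h. Egfl7 fell at 48 h against the control (log2FC -0.95, adjusted p 0.0160).

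Markers of chondrocytes, the cells on the other side of the membrane, were mixed. Acan, Col9a1 and Matn1 had no read in any library, and Col2a1 had 7 reads over the control libraries, 8 at 24 h and 5 at 48 h. The sum of the 10 chondrocyte markers, 111.5 to 123.2 CPM in the control and 124.1 to 129.99 at 48 h, came mostly from Sox9, a transcription factor that other skeletal cells also express, at means of 111.8 CPM in the control, 104.0 at 24 h and 123.6 at 48 h. The 24 h libraries summed to 103.6 to 111.7 CPM. Of 3 other markers that passed the filter, Matn3, Col11a2 and Comp, all encode cartilage matrix proteins. Matn3 fell at 48 h against the control, and Col11a2 had a log2FC of 0.02 (adjusted p 0.961). Matn3 was at means of 4.02 CPM in the control, 2.63 at 24 h and 1.65 at 48 h (log2FC -1.25 at 48 h, adjusted p 0.00155). Comp was at 0.320 CPM in the control, 0.203 at 24 h and 0.873 at 48 h, on at most 7 counts per control library and 12 to 21 at 48 h. Its log2FC at 48 h was 1.45 against the control and 2.06 against 24 h. Only its 48 h libraries reached the minimum count of the filter, so these changes are given without a test. Sox9 rose at 48 h by a log2FC of 0.14 against the control (adjusted p 0.0449). What part, if any, these genes had in the level of Fabp4 was not tested.

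Plin2 encodes perilipin 2, the coat protein found on the droplets of most cells, and it fell at 24 h. Plin2 (ENSMUSG00000028494, chromosome 4, 86566623 to 86588297) was at 166.2, 173.7 and 165.4 CPM in the control, at 142.7, 150.1 and 147.5 CPM at 24 h and at 165.5, 158.6 and 162.6 CPM at 48 h. The 24 h libraries lay below all others, and control and 48 h libraries overlapped. The log2FC at 24 h was -0.20 (SE 0.05, adjusted p 0.0199). The call was lost without 24 h replicate 1 (adjusted p 0.137), without 24 h replicate 3 (adjusted p 0.0770) and with only the control and 24 h libraries in the fit (adjusted p 0.0646). At 48 h the log2FC was -0.05 (SE 0.05) against the control and 0.14 (SE 0.05, adjusted p 0.0207) against 24 h. The latter call was lost without 24 h replicate 1 (adjusted p 0.102), 48 h replicate 1 (0.0838) or 48 h replicate 3 (0.0570), and with no filter on low counts (0.104).

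Hilpda encodes a small droplet protein that is induced by low oxygen and inhibits adipose triglyceride lipase. Hilpda (ENSMUSG00000043421, chromosome 6, 29272487 to 29275445) was at 27.8, 28.2 and 26.6 CPM in the control, at 38.4, 36.5 and 35.7 CPM at 24 h and at 37.0, 37.0 and 38.2 CPM at 48 h. All libraries of either time were above all control libraries, and the 24 h and 48 h libraries overlapped. Hilpda rose at 24 h by a log2FC of 0.42 (SE 0.07, adjusted p 0.000486), which is a fold of 1.34, and passed under every alternative fit that kept the threshold on p alone, with adjusted p of at most 0.00618. At 48 h the log2FC was 0.44 (SE 0.07) against the control. Against 24 h it was 0.02 (SE 0.06, adjusted p 0.810), with an interval of -0.11 to 0.16.

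**Figure D2:**
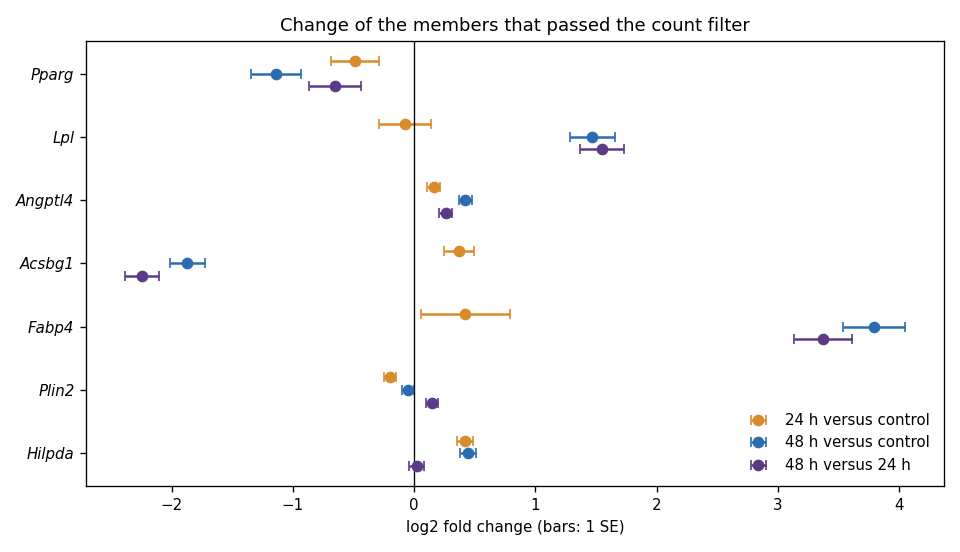
Log2FC of the 7 members that passed the count filter, in the 3 comparisons, with bars of 1 SE. Fabp4 (3.79) and Lpl (1.47) lie to the right and Acsbg1 (-1.87) and Pparg (-1.14) to the left at 48 h against the control. Hilpda has the same position at both times against the control (0.42 and 0.44), and Plin2 stays within 0.20 of 0.

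Levels of different genes were compared per kilobase of the gene length in the deposited table. In the control the order was Plin2 at 48.0 ± 1.30 CPM per kb (SD, n = 3), Angptl4 at 35.5 ± 1.20, Hilpda at 25.0 ± 0.743, Acsbg1 at 4.47 ± 0.504, Pparg at 2.02 ± 0.107 and Lpl at 0.301 ± 0.0976 (SD, n = 3 for each). Fabp4 followed at 0.131 ± 0.0446, Fabp3 at 0.107 ± 0.115, Fabp5 at 0.0875 ± 0.103 and Cd36 at 0.0186 ± 0.0176 CPM per kb (SD, n = 3), and these last 4 were within their spread of each other save for Cd36 and Fabp4. At 48 h Angptl4 (47.5 ± 1.66 CPM per kb) and Plin2 (46.2 ± 0.975) no longer differed beyond their spread. Fabp4 stood at 1.88 ± 0.125, above Acsbg1 at 1.22 ± 0.307, Pparg at 0.917 ± 0.214 and Lpl at 0.850 ± 0.0573, where Pparg overlapped with both of the others. The deposited length of Fabp4, 4489 bases, equals its whole span on the chromosome, introns included, so its level per kb is set low by the length used.

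Other genes of the same pathways were taken from 8 lists of 147 genes in all, of which 146 were in the table and 99 passed the filter. At 24 h 4 of the 99 were higher and 8 lower than the control, where 3.25% and 2.90% of all genes were. Without control replicate 3 these counts were 12 and 11, and the lower genes numbered 3 without 24 h replicate 1 or 3 and 5 without 48 h replicate 1. At 48 h 40 were higher and 20 lower than the control, or 40.4% and 20.2%, against 22.0% and 24.4% of all genes. From 24 h to 48 h 41 were higher and 16 lower, or 41.4% and 16.2%, against 23.7% and 25.4%. The median log2FC of the 99 genes was -0.02 at 24 h, 0.07 at 48 h and 0.11 from 24 h to 48 h, and that of all genes tested was between -0.0042 and -0.0017 in each comparison.

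**Figure D3:**
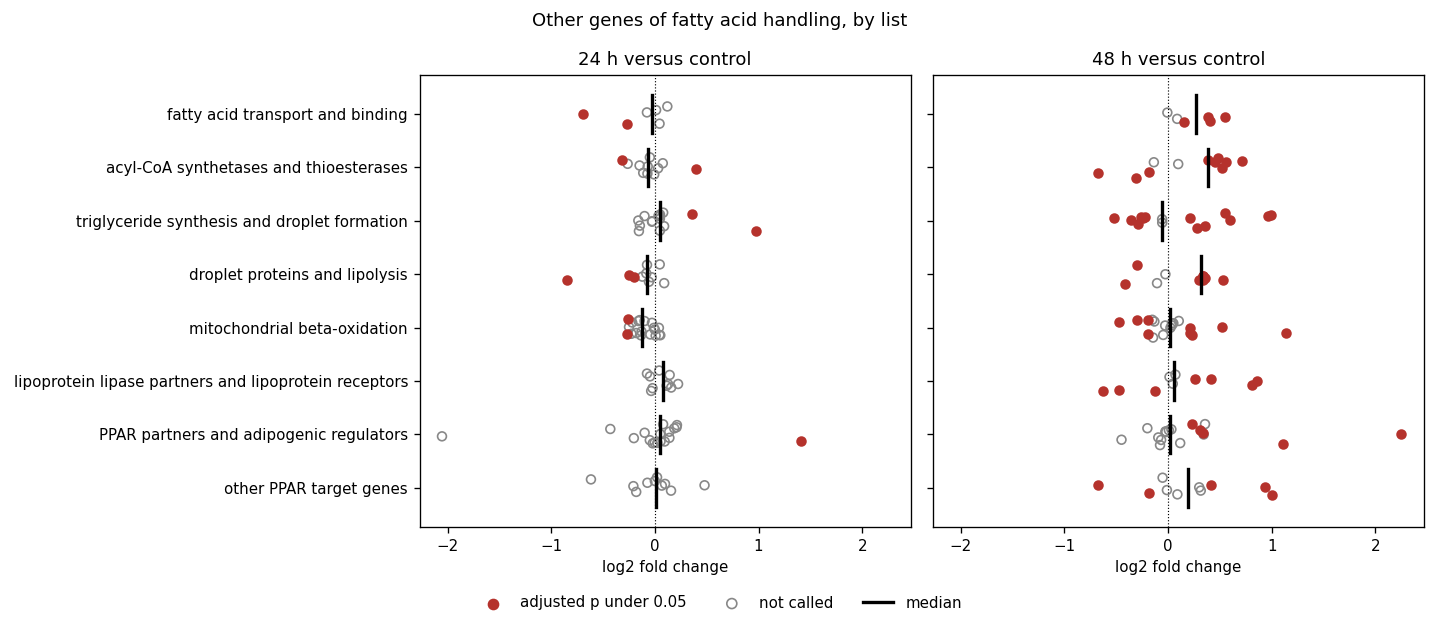
Log2FC of each tested gene of the 8 lists at 24 h (left) and 48 h (right) against the control, where red points passed at an adjusted p under 0.05, open points did not, and black bars are list medians. At 24 h 12 of 99 points are red. At 48 h 60 are, on both sides of 0 in all lists but transport and binding and the PPAR partners, whose called genes all lie on the high side.

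Among transporters and carriers, 6 of 15 genes were tested. At 24 h 2 fell (33.3%, against 2.90% of all genes), and at 48 h 4 rose (66.7%, against 22.0%). Slc27a1, the fatty acid transport protein of muscle and fat, had control libraries at 59.7 ± 2.48 CPM (SD, n = 3), 24 h libraries at 36.8 ± 3.41 and 48 h libraries at 63.4 ± 0.980. It fell at 24 h by 0.70 on the log2 scale (SE 0.07, adjusted p 2.54e-06) and rose from 24 h to 48 h by 0.78 (SE 0.07, adjusted p 2.76e-08). Dbi, the acyl-CoA binding protein, rose at 48 h from 85.3 ± 3.73 to 124.6 ± 2.61 CPM (SD, n = 3), with a log2FC of 0.55 (SE 0.05, adjusted p 1.39e-07).

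Of 15 acyl-CoA synthetases and thioesterases, 11 were tested, with 1 higher and 1 lower at 24 h and 6 higher and 3 lower at 48 h. At 24 h these are 9.09% each, against 3.25% and 2.90% of all genes, and at 48 h 54.5% and 27.3%, against 22.0% and 24.4%. Acsl4, a synthetase that prefers arachidonic acid, stood at 148.2 ± 18.0 CPM (SD, n = 3) in control libraries, 195.3 ± 0.672 at 24 h and 242.9 ± 2.86 at 48 h. It rose at 24 h by a log2FC of 0.40 (SE 0.07, adjusted p 0.000680) and at 48 h by 0.71 (SE 0.07, adjusted p 7.04e-08). Acsbg1, the synthetase among the members, was below its control level at 48 h. Acot7, a thioesterase that splits acyl-CoA, fell at 48 h from 87.3 ± 2.87 to 54.6 ± 1.96 CPM (SD, n = 3), with -0.68 (SE 0.06, adjusted p 2.59e-08) against the control and -0.75 (adjusted p 5.05e-09) against 24 h. Acss2, which activates acetate, rose from 24 h to 48 h by 0.75 (adjusted p 2.16e-06). Acot13 fell by 0.32 at 24 h (adjusted p 0.0452), a call lost in 9 of 14 alternatives, among them DESeq2 (adjusted p 0.0644).

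Triglyceride synthesis had 15 of 19 genes tested, 2 higher and none lower at 24 h (1 lower without control replicate 3), and 7 higher and 6 lower at 48 h. Of the 15, 13.3% were thus higher at 24 h, against 3.25% of all genes. At 48 h 46.7% were higher and 40% lower, against 22.0% and 24.4%. The 2 genes that rose at 24 h, Dgat2 and Dgat1, both encode the enzymes of the final step, from diglyceride to triglyceride. Dgat2 was at 4.39, 5.23 and 3.99 CPM in the control, at 9.55, 8.59 and 8.61 at 24 h and at 8.46, 8.15 and 9.93 at 48 h, without overlap between control and either time. Its log2FC was 0.98 (SE 0.15, adjusted p 0.000240) at 24 h. Dgat1 rose from 38.0 ± 4.40 CPM (SD, n = 3) to 48.7 ± 1.82 at 24 h (log2FC 0.36, adjusted p 0.00539) and 75.6 ± 2.62 at 48 h (0.99, SE 0.07, adjusted p 3.26e-09). Agpat5, of an earlier step, fell at 48 h by 0.52 (SE 0.08, adjusted p 1.86e-05) against the control and by 0.57 (adjusted p 5.36e-06) against 24 h, while Lpin1, a phosphatidate phosphatase, rose from 24 h to 48 h by 0.74 (adjusted p 2.25e-06).

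Of the other droplet proteins and lipases, 10 of 19 were tested, with none higher and 3 lower at 24 h and 6 higher and 2 lower at 48 h. The 24 h share of 30% lower stands against 2.90% of all genes, and 48 h shares of 60% and 20% against 22.0% and 24.4%. Without 24 h replicate 1 or 24 h replicate 3, 1 was lower at 24 h. Plin4, another perilipin, fell like Plin2 at 24 h, from 43.6 ± 1.57 CPM (SD, n = 3) to 24.2 ± 1.72, with a log2FC of -0.85 (SE 0.08, adjusted p 6.33e-07), and at 48 h it was at 32.6 ± 2.01, with -0.42 (SE 0.07, adjusted p 0.000115). Plin3 also fell at 24 h, by 0.20 (adjusted p 0.0371), and rose at 48 h by 0.34 (adjusted p 5.56e-05). Its 24 h call was lost without 24 h replicate 1 or 24 h replicate 3, and that of Plin4 was kept. Plin1 and Plin5 had at most 1 count per library. Abhd5, which activates adipose triglyceride lipase, rose at 48 h by 0.53 (SE 0.07, adjusted p 2.31e-06), and Pnpla2, the lipase itself, by 0.34 (adjusted p 0.00419). Lipa, the acid lipase of lysosomes, fell at 24 h by 0.25 (adjusted p 0.0214), a call lost in the same fits as that of Plin3. From 24 h to 48 h Lipa rose by 0.58 (adjusted p 3.05e-07) and Aup1, a droplet protein, fell by 0.24 (adjusted p 0.00107).

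Mitochondrial beta-oxidation, the main route of fatty acid breakdown, had 19 of 20 genes tested. At 24 h none were higher and 2 were lower, where 3.25% and 2.90% of all genes were. At 48 h 5 were higher and 4 lower, or 26.3% and 21.1%, against 22.0% and 24.4% of all genes. The 2 at 24 h became 0 without 24 h replicate 1 or 3, and 1 without control replicate 1 or 2, 24 h replicate 2 or 48 h replicate 1. At 48 h, 3 were higher without 48 h replicate 1 and 2 were lower without control replicate 2. Acadm, the medium-chain acyl-CoA dehydrogenase, stood apart, at 103.5 ± 0.635 CPM (SD, n = 3) in the control, 93.4 ± 1.34 at 24 h and 228.1 ± 10.6 at 48 h. Its log2FC at 48 h was 1.14 (SE 0.05, adjusted p 6.10e-12), and the next largest rise in the list, of Cpt1a, which admits acyl chains to mitochondria, was 0.52 (adjusted p 1.22e-07). Etfb fell at 48 h by 0.47 (SE 0.13, adjusted p 0.00644). Acaa2 fell at 24 h by 0.27 (SE 0.06, adjusted p 0.0146), and the call was lost without 24 h replicate 1 (0.0862) or 24 h replicate 3 (0.0627). Acadvl fell from 24 h to 48 h by 0.18 (adjusted p 0.0201), which 5 of 14 alternatives did not keep.

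Partners of lipoprotein lipase and lipoprotein receptors had 10 of 20 genes tested, none called at 24 h and 4 higher and 3 lower at 48 h. The 48 h shares are 40% and 30%, against 22.0% and 24.4% of all genes. At 24 h 3 of the 10 had an unadjusted p under 0.05, and DESeq2 called 0. Without control replicate 3, 3 were called higher, and without 24 h replicate 2, 1 was. Gpihbp1, the endothelial anchor of lipoprotein lipase, had no read. Vldlr, the receptor of very low density lipoprotein, rose at 48 h from 12.6 ± 0.543 to 23.0 ± 1.03 CPM (SD, n = 3), a log2FC of 0.86 (SE 0.09, adjusted p 5.35e-07). Apoe fell at 48 h by 0.63 (SE 0.18, adjusted p 0.00700), and Lrp8 fell from 24 h to 48 h by 0.63 (SE 0.06, adjusted p 7.77e-08). Lmf1, which matures the lipase in the endoplasmic reticulum, rose at 48 h by 0.42 (adjusted p 0.000901).

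Of the PPAR partners and regulators of fat cell formation, 18 of 23 were tested, with 1 higher at 24 h, 5 higher at 48 h and none lower at either. The shares higher were 5.56% at 24 h, against 3.25% of all genes, and 27.8% at 48 h, against 22.0%. Of all genes, 2.90% were lower at 24 h and 24.4% at 48 h. Without control replicate 3, 5 were higher at 24 h, and leaving out single libraries gave 4 to 7 higher at 48 h. Cebpd, an early factor of that program and of the acute phase response, stood at 8.89 ± 1.77 CPM (SD, n = 3) in control libraries, 23.7 ± 2.73 at 24 h and 42.5 ± 6.09 at 48 h. It rose at 24 h by a log2FC of 1.41 (SE 0.14, adjusted p 2.42e-06) and at 48 h by 2.25 (SE 0.13, adjusted p 1.73e-10). Klf15 rose from 24 h to 48 h by 1.11 (SE 0.22, adjusted p 0.000452), and Nr1h3 fell by 0.39 (adjusted p 0.0484), a call lost in 12 of 14 alternatives. Cebpa, the partner of PPARγ in mature fat cells, had a log2FC of 0.34 at 48 h (adjusted p 0.0870), and Ppard, the PPAR with the highest CPM here, -0.07 (adjusted p 0.401). Ppara was under the filter, at means of 0.378 to 0.540 CPM.

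Other target genes of PPARs had 10 of 16 tested, none called at 24 h and 3 higher and 2 lower at 48 h. At 48 h this is 30% and 20%, against 22.0% and 24.4% of all genes. At 24 h 2 of the 10 had an unadjusted p under 0.05, and DESeq2 called 0. Without control replicate 3, 1 was higher and 1 lower at 24 h and 5 were higher at 48 h, and without control replicate 1, 1 was lower at 24 h. Pdk4, which restrains glucose oxidation, rose at 48 h from 3.86 ± 0.451 to 7.78 ± 0.666 CPM (SD, n = 3), with 1.01 (SE 0.17, adjusted p 8.34e-05). Gk, glycerol kinase, fell by 0.67 (SE 0.10, adjusted p 1.42e-05) against the control and by 0.83 (adjusted p 8.50e-07) against 24 h. Vnn1 rose from 24 h to 48 h by 1.55 (SE 0.26, adjusted p 8.28e-05), to 2.98 ± 0.139 CPM (SD, n = 3). Fgf21, a target best known from liver, had no read in any library.

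**Figure D4:**
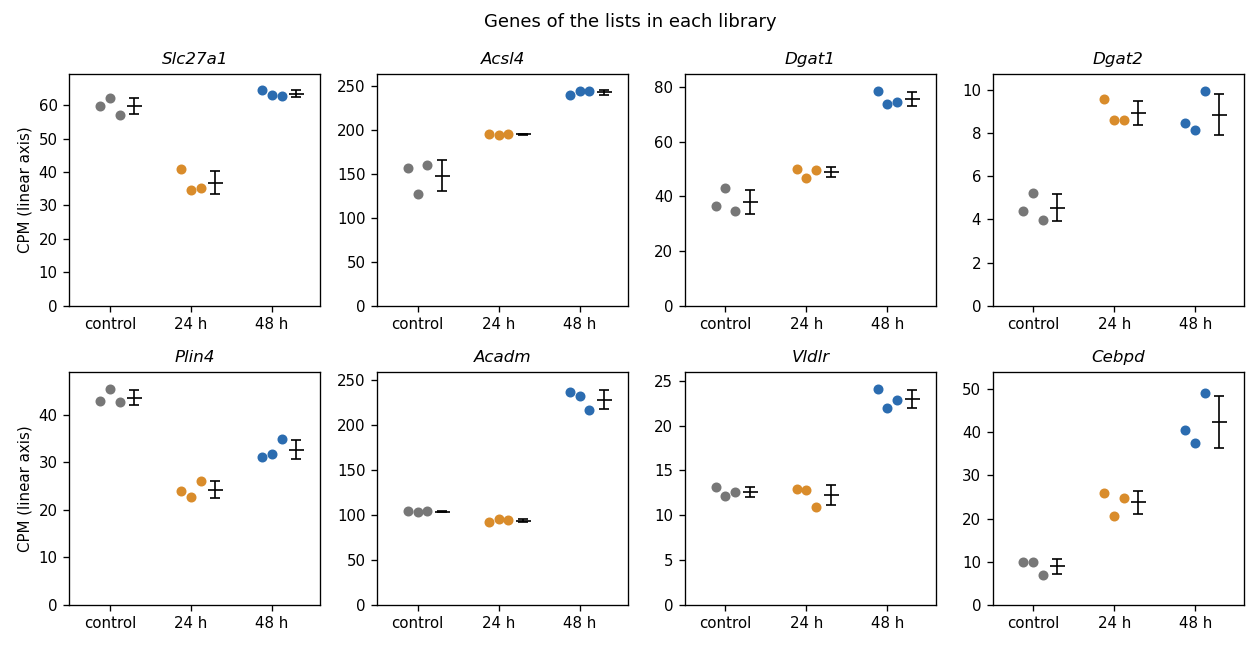
CPM of 8 genes of the lists in each library, on linear axes that start at 0, with the mean and SD of 3 libraries per group in black. Slc27a1 and Plin4 are lowest at 24 h, Dgat2 is higher at both times than in the control, Dgat1, Acsl4 and Cebpd are higher at each later time, and Acadm and Vldlr stand above the other groups at 48 h.

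Genes with a course like that of a member were sought over the 9 libraries, by the Pearson correlation of log2 CPM among protein-coding genes at a mean of at least 5 CPM. The libraries form 3 groups, so a high correlation says mainly that the group means have the same order and is given as a description. For Fabp4 the genes most alike included Gbp2b (0.994) and Zbp1 (0.992), and 304 of 10080 genes, or 3.02%, reached 0.95. For Acsbg1 the 3 most alike were Itga5 (0.994), Prdx6 (0.993) and Timm8a1 (0.993), and 7.40% of genes reached 0.95. The course of Hilpda was less common, with 27 genes, or 0.268%, at 0.95 or more, led by Smim3 (0.990), Dgat2 (0.986) and Pgm1 (0.976). For Plin2 only 10 genes reached it, led by Rarg (0.980), Aqp5 (0.964) and S100a10 (0.962). Dgat2 is in the list of triglyceride synthesis above, and Gbp2b belongs to a family of similar genes whose reads may be shared.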

How the data were processed

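The deposited table holds raw read counts for each gene and was made by the authors with HISAT2 alignment to GRCm39 and featureCounts, for which the submitters' processing notes give version 2.06 and other sources differ. RSEM is also named. The strand setting and the handling of reads with several matches are not given in the sources used here.

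The analysis used R 4.3.3 and edgeR 4.0.16. Genes were kept by filterByExpr (minimum count 10), which left 99.9% of the reads, and scaled by TMM. A single quasi-likelihood model of group was fitted to the 9 libraries (residual degrees of freedom 6), and p-values were adjusted over 13812 genes. The SE is the log2 fold change divided by the root of F. The code was tested on simulated data. Groups and replicate numbers came from the labels. Correlates used log2 CPM with a prior count of 2.

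The members and gene lists were chosen with earlier results of these data known. From each list and comparison, the called genes at 1 CPM or more with the largest rise and the largest fall were named. Cpt1a, Pnpla2, Plin3, Lmf1, Cebpa, Ppard, Matn3, Comp, Dgat1 and Lipa at 24 h and genes without reads were named after their values were seen. So were Lipe, Csf1r, Cd68, Lyz2, Fcer1g and Egfl7. Alternatives were DESeq2 1.42.0, library size only, no filter, fits of 2 groups, a replicate block, leaving out each library and a minimum log2 fold change of 1. A few items are not reported here.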

Additional observations from a re-analysis of the deposited data

Results flagged for a closer look

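For 4 members the 48 h group differed from the 24 h group (edgeR quasi-likelihood test), a comparison in which the control cancels. The labels give the control no culture time, so an effect of time alone cannot be told apart from one of stimulation. The log2 fold change from 24 h to 48 h was 1.55 for Lpl (adjusted p 1.43e-06), 0.26 for Angptl4 (adjusted p 0.000431), -0.65 for Pparg (adjusted p 0.0164) and 0.14 for Plin2 (adjusted p 0.0207). All 3 libraries of 48 h lay on 1 side of all 3 of 24 h in each of these genes. The calls of Pparg and Plin2 were not kept by every alternative. Pparg lost its call on leaving out some single libraries (adjusted p 0.0581 to 0.143). Plin2 lost its call on leaving out some single libraries and with no filter on low counts (adjusted p 0.0570 to 0.104). The test uses the 48 h libraries that also entered the choice of the list. Groups of 3 are too small for a test of single outlying libraries.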

How the results depend on the processing

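Of the values of members and named genes, 756 alternatives kept direction and side of the threshold, 38 lost the call and 3 gained it. The log2FC of Lpl at 24 h turned from -0.08 to 0.23 without control replicate 1, and leaving out single libraries gave -0.27 to 0.23. Counts of members called higher and lower at 24 h (1 and 1) were 2 and 1 with no filter or with the replicate block, 1 and 0 with 2 groups in the fit and 0 and 0 at a log2 fold change of at least 1. Leaving out single libraries gave 1 to 2 and 0 to 1. At that fold minimum the counts at 48 h were 2 higher and 2 lower against the control and 2 and 1 against 24 h. They include Fabp4 and Acsbg1, whose 48 h values chose the list. At the p threshold alone, leaving out single libraries gave 3 to 4 higher and 1 to 2 lower against 24 h. Of the list genes at 24 h (4 higher, 8 lower), 7 were higher with no filter and with the replicate block, 4 were lower with 2 groups in the fit, and 1 and 0 passed the fold minimum, with 4 to 12 and 3 to 11 on leaving out single libraries. At 48 h 4 higher and 0 lower list genes passed the fold minimum against the control, and 4 and 0 against 24 h. The share of all genes at the fold minimum is not given, so nothing is read from the counts at it, for members or lists. The replicate block gained Acsbg1 at 24 h (adjusted p 0.0489) and lost Nr1h3 (0.0614), and no other member or named gene changed its call under it. Same-numbered libraries did not deviate together (correlations -0.0493 to 0.0775, and -0.0970 to 0.0949 for different numbers). This gives no sign of a pairing by number, but noise in groups of 3 could hide one. The cause of these changes was not tested. Depth limits what can be said of Fabp3, Fabp5, Cd36 and Retn, which stayed at 23 counts or fewer per library.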

Other observations

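Retn, a fat cell hormone gene that lies under the count filter, had reads at 48 h (15 over 3 libraries) beside 2 at 24 h and none in the control, and was singled out after its values were seen. Ppargc1a, a coactivator of PPARs, had 11, 8 and 13 counts in the control libraries, 6, 0 and 2 at 24 h and 16, 20 and 4 at 48 h, with overlap between 24 h and 48 h, and no fold is given since 2 of the 24 h libraries are under the floor of 3 counts. Lrp1, a receptor that takes up lipoprotein remnants, was at 5311 CPM in the control and rose at 48 h by a log2FC of 0.26 (adjusted p 0.00782). Its control and 48 h libraries overlapped, with control replicate 3 at 6139 CPM and 48 h replicate 2 at 6015 CPM. Lipg, an endothelial-type lipase related to Lpl, rose at 48 h by 0.81 (adjusted p 4.04e-06), from 14.8 to 25.9 CPM. These genes were also picked after the values were seen.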
